A study of Mus musculus with 6 samples.

Results

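Of the 20950 entries in the deposited table of C2C12 RNA levels, 10 are described here. They are the genes Hk1, Hk2, Pfkm, Pfkp, Pgam1, Pgam2, Eno1, Eno3, Pygm and Ldha, found by their symbols, which encode enzymes of glycolysis and of glycogen breakdown. All 10 were found and all passed the filter applied before testing, which kept the 10731 entries averaging 1 or more FPKM (fragments per kilobase of transcript, scaled to library depth). C2C12 cells are an established line of mouse myoblasts, which form myotubes by fusion once serum is withdrawn, and every library comes from this single line. Cells kept in DMEM with 10% FBS (fetal bovine serum) gave 1 library. Cells moved to 2% HS (horse serum) gave 1 library without and 1 with exosomes, and cells moved to 0.2% FBS gave 1 without and 2 with exosomes. The exosomes were vesicles isolated from FBS and added in about the amount that 10% FBS contains. No label says that the replicates 1 and 2 of 0.2% FBS + exosome came from separate cultures, so their spread may be technical.

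Glycolysis turns glucose into pyruvate and then lactate, and several of its steps have a form that most cells make and another that builds up as skeletal muscle matures. Muscle fibres also store glucose as glycogen, which a muscle-specific phosphorylase releases during contraction. Pfkm, Pgam2, Eno3 and Pygm encode muscle forms, and Hk2 the hexokinase typical of insulin-responsive tissue such as muscle. Hk1, Pfkp, Pgam1, Eno1 and Ldha encode forms found in many tissues.

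By estimated depth the libraries were alike, at 33600000 to 39400000 reads, although the table holds no counts. The estimate put between 511 reads (Pgam2, 0.2% FBS + exosome, replicate 2) and 40189 reads (Eno3, 2% HS) behind a single value of these genes, for a counting error of at most 4.42%. The cells carried muscle markers in every library, with Myod1, the myoblast regulator, at 83.7 to 110 FPKM and Myog, its partner in differentiation, at 350 to 720. The 6 myotube markers (Myog, Tmem8c, which is now called Mymk, Myh3, Ckm, Acta1 and Tnnt3) summed to 4655 FPKM in 10% FBS, 10019 in 2% HS, 9703 in 2% HS + exosome and 10986 in 0.2% FBS, and to 4833 and 3417 in the replicates of 0.2% FBS + exosome. Of markers of other cells, Adipoq (fat), Ptprc (leukocytes) and Pecam1 (endothelium) stayed at or below 0.0775 FPKM, while Cd68 (macrophages) was at 1.19 to 2 FPKM, Lyz2 (macrophages) at 0.813 to 1.46 and Lep (fat) at 1.01 to 1.62, none of them called with exosomes. Of 5 blood and platelet markers found, Hbb-bs was at 0 throughout, and the sum was 3.34 to 5.94 FPKM without exosomes, 4.54 in 2% HS + exosome, and 9.44 and 20.7 in 0.2% FBS + exosome, where the chemokine gene Ppbp rose (1.52, limma adjusted p = 0.0293). The part of these transcripts in the changes of the enzymes was not tested.

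**Figure D1:**
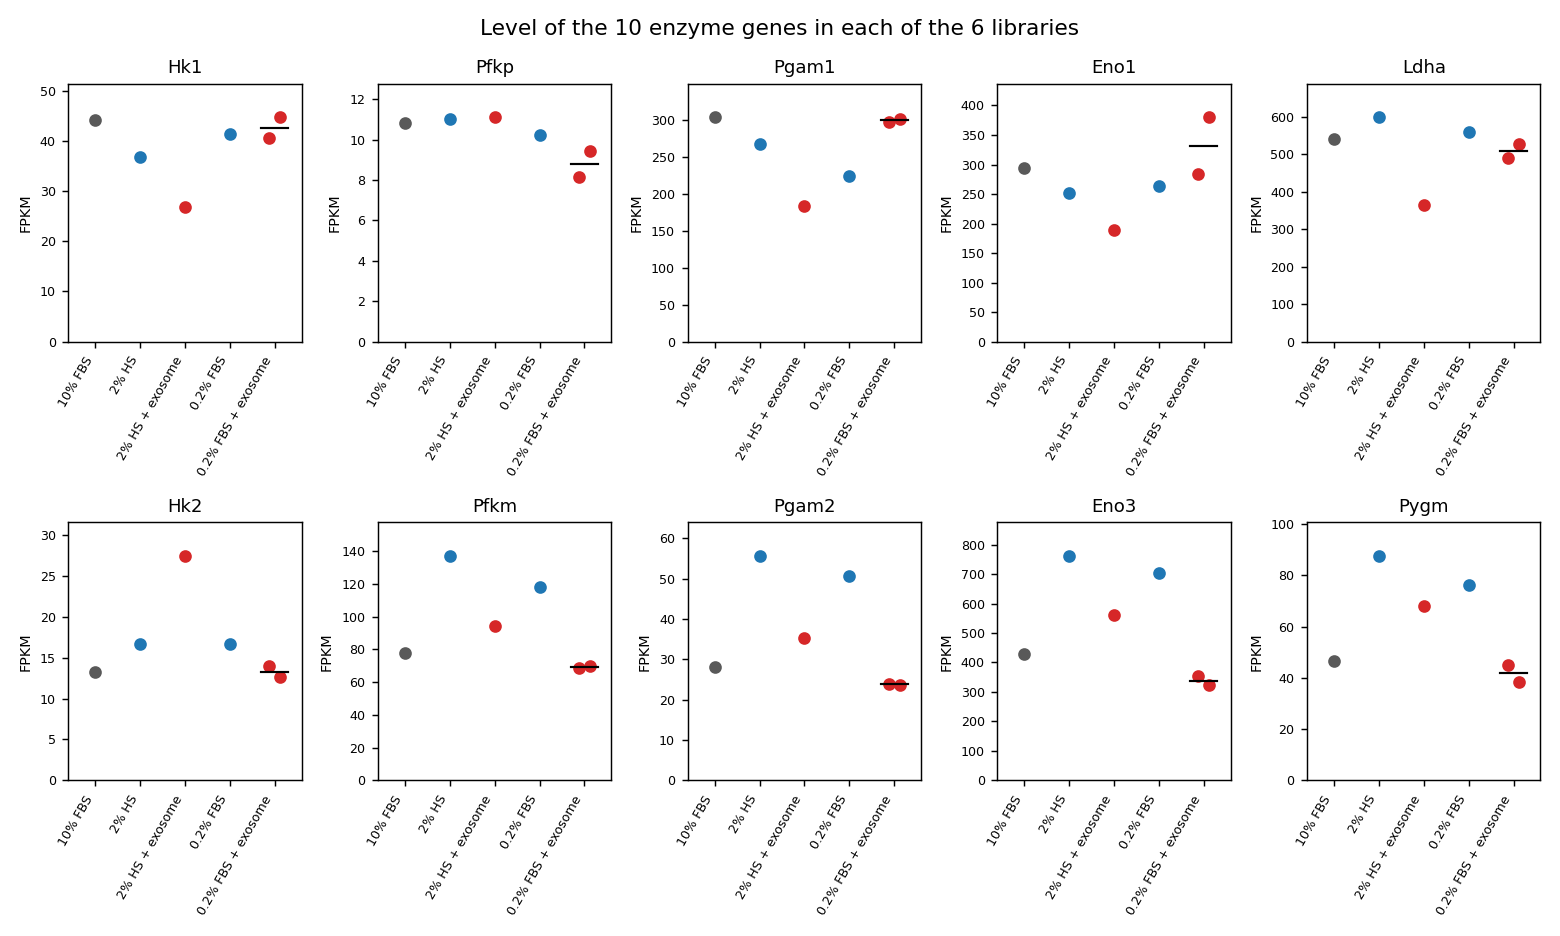
Level of each of the 10 genes in FPKM (vertical axes, from 0) in each of the 5 conditions (horizontal axes), with a point for each library and a bar at the mean of the 2 libraries of 0.2% FBS + exosome. Grey points are 10% FBS, blue points reduced serum and red points exosome libraries. In the lower row Pfkm, Pgam2, Eno3 and Pygm peak in 2% HS and 0.2% FBS, whereas Hk2 peaks in 2% HS + exosome at 27.4 FPKM.

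The muscle forms were examined first. Pgam2, muscle phosphoglycerate mutase, which moves the phosphate of 3-phosphoglycerate to the next carbon, lies at chr11:5801640-5803733 (mm10, minus strand). It was at 28.0 FPKM in 10% FBS, 55.6 in 2% HS, 35.2 in 2% HS + exosome, 50.6 in 0.2% FBS, and 23.9 and 23.7 in 0.2% FBS + exosome. Both exosome libraries in 0.2% FBS lay below every other library, and their values were 0.473 and 0.469 times that of 0.2% FBS. The share of all genes with these 2 libraries lowest was not counted, here or for the genes below. In 14.3% of all genes tested, these 2 and 10% FBS all lay below the other 3 libraries, as for Hk2, Pfkm, Pgam2, Eno3 and Pygm. Pgam2 fell by 1.06 on the log2(FPKM + 1) scale (SE 0.16, replicate SD 0.008, n = 2, limma adjusted p = 0.0101), in a fit of all 6 libraries with 1 mean per condition. Only these replicates give that fit a residual spread, which limma moderates with the spread of all genes tested. Of its 8.28 residual and prior degrees of freedom, 1 is residual. In 2% HS, with 1 library each, the difference was −0.64 and was not called in the same fit, which assumes that these libraries vary like the replicates in 0.2% FBS (limma adjusted p = 0.605).

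Pygm, muscle glycogen phosphorylase, which releases glucose 1-phosphate from glycogen, lies at chr19:6384399-6398459 on the plus strand and was at 46.6 FPKM in 10% FBS, 87.5 in 2% HS, 67.9 in 2% HS + exosome, 76.4 in 0.2% FBS, and 45.1 and 38.3 in 0.2% FBS + exosome. It fell with exosomes in 0.2% FBS by 0.86 (SE 0.19, replicate SD 0.16, limma adjusted p = 0.0252), and differed by −0.36 in 2% HS. Here too the exosome libraries in 0.2% FBS were below all the others, with 10% FBS next.

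Pfkm, the muscle subunit of phosphofructokinase, the enzyme of the main controlled step of glycolysis, lies at chr15:98092589-98132451 on the plus strand and was at 77.5 FPKM in 10% FBS, 137 in 2% HS, 94.3 in 2% HS + exosome, 118 in 0.2% FBS, and 68.5 and 70.1 in 0.2% FBS + exosome. With exosomes in 0.2% FBS it fell by 0.76 (SE 0.19, replicate SD 0.023, limma adjusted p = 0.0367). The single libraries of 2% HS differed by −0.54.

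Eno3, muscle enolase, which makes phosphoenolpyruvate, lies at chr11:70657202-70662513 on the plus strand. It was the most abundant of the muscle forms, at 428 FPKM in 10% FBS, 761 in 2% HS, 562 in 2% HS + exosome, 702 in 0.2% FBS, and 355 and 322 in 0.2% FBS + exosome. The 0.2% FBS + exosome libraries were again the lowest. The change in 0.2% FBS was −1.05 (SE 0.31, replicate SD 0.097), about as large as for Pgam2, but it did not pass the threshold (limma adjusted p = 0.0586). It passed under 2 of 6 alternatives. Without a mean-variance trend in limma the adjusted p was 0.0227, and after all libraries were scaled to a common 75th percentile 0.0383. Under the others the limma adjusted p was 0.0549 (minimum of 5 FPKM), 0.0552 (pseudocount of 0.1), 0.142 (values below 1 FPKM raised to 1) and 0.246 (no filter). In 2% HS the difference was −0.44.

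Counted over the members, 3 of 10 (Pfkm, Pgam2 and Pygm) were called lower with exosomes in 0.2% FBS, where 4.32% of all genes tested were called lower by limma. No member was called higher, where 8.2% of all genes were. After all libraries were scaled to a common 75th percentile, 4 members were called lower, as Eno3 was added, and 684 of the 10731 genes were called lower and 480 higher, in place of 464 and 880. By fold alone, with a log2 change past −1, Pgam2 and Eno3 were counted, against 2.25% of all genes. In each replicate singly, Pgam2 passed that fold in both (−1.05 and −1.06) and Eno3 in replicate 2 alone (−0.98 and −1.12). The median log2 change of the 4 muscle forms was −0.96, beside 0.14 for all genes tested. That shift of all genes exceeded 0.1, and with each library scaled to the same 75th percentile, which put the median of all genes at 0.007, the changes were −1.20 for Pgam2, −1.20 for Eno3, −1.01 for Pygm and −0.91 for Pfkm. The calls for Pfkm, Pgam2 and Pygm were lost under 2 settings that left their changes at −0.76 to −0.77, −1.06 to −1.09 and −0.86 to −0.88: with no filter on low values their limma adjusted p was 0.243, and with values below 1 FPKM raised to 1 it was 0.134.

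Myotube markers also had lower values with exosomes in 0.2% FBS, and limma called 2 of the 6. With exosomes in 0.2% FBS the median log2 change of the 6 markers was −1.42 and all 6 values were below 0, with Tmem8c (−1.37, limma adjusted p = 0.0484) and Tnnt3 (−1.81, limma adjusted p = 0.0289) past the threshold. The 5 genes listed as myoblast markers had a median change of −0.23, with 3 values below 0 and 2 above. Of these Myf5, an early myogenic regulator, rose with exosomes in 0.2% FBS (0.96, limma adjusted p = 0.0196) and fell in reduced serum (−0.93, limma adjusted p = 0.0489). The others were not called, with changes in 0.2% FBS of −0.92 for Des, −0.91 for Chrna1, −0.23 for Myod1 and 0.29 for Cdh15. In reduced serum Des (0.74), Chrna1 (0.93) and Myod1 (0.30) had higher values, as all 6 myotube markers did, and Cdh15 differed by −0.084. The median of this list therefore mixes genes of both directions. In 2% HS the same myotube markers had a median difference of 0.0096 with exosomes, with 3 values below 0 and 3 above, from −0.33 for Ckm to 0.35 for Myog. Pfkm, Pgam2, Eno3 and Pygm differed there by −0.36 to −0.64. This was not particular to the muscle forms: Ldha differed by −0.71, Pgam1 by −0.54, Hk1 by −0.44 and Eno1 by −0.40, but Pfkp by 0.012 and Hk2 by 0.68. In bulk RNA, fewer cells of a type and less RNA per cell cannot be told apart, and the part of the markers' change in that of the enzymes was not tested.

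**Figure D2:**
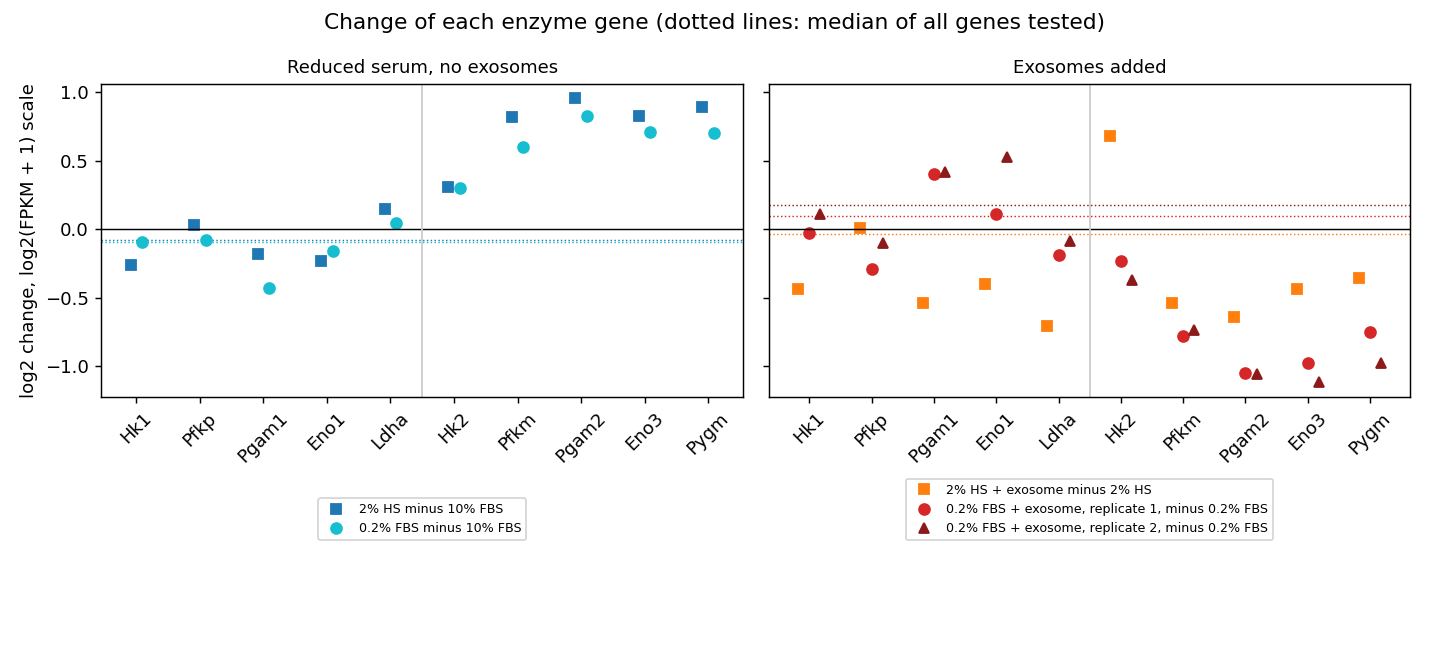
Difference in log2(FPKM + 1) (vertical axis) of each of the 10 genes (horizontal axis), for each reduced-serum library minus 10% FBS (left) and for each exosome library minus the library of its own medium without exosomes (right). Squares are 2% HS, circles and triangles 0.2% FBS, and dotted lines the median of all genes tested. Pfkm, Pgam2, Eno3 and Pygm are above 0 in both media on the left and below 0 in all 3 exosome libraries on the right.

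The same 4 genes had higher values in both reduced-serum libraries than in 10% FBS, as did Hk2 (0.31 in 2% HS and 0.30 in 0.2% FBS), Ldha (0.15 and 0.048) and 31.4% of all genes tested. In 2% HS the log2 differences of the muscle forms from 10% FBS were 0.96 for Pgam2, 0.89 for Pygm, 0.83 for Eno3 and 0.82 for Pfkm. In 0.2% FBS they were 0.83, 0.70, 0.71 and 0.60 in that order. None of the 10 genes passed a log2 difference of 1, which 1.79% of all genes did upward in 2% HS and likewise 1.79% in 0.2% FBS, although Pgam2 in 2% HS came to 1.02 after scaling to the 75th percentile. Tested singly in the same fit, limma called no member in 2% HS (0.513% of all genes called) or in 0.2% FBS (0.0186% of all genes). At an unadjusted limma p under 0.05 there were 4 members in 2% HS, beside 1805 of the 10731 genes tested. In 0.2% FBS there were 3 members, beside 1898 genes. The lowest limma adjusted p, for Pgam2, was 0.0694 in 2% HS and 0.0857 in 0.2% FBS. For the mean of both media against 10% FBS, Pgam2 rose by 0.90 (SE 0.16, limma adjusted p = 0.0426), the single member called, where 1.42% of all genes were called higher. That call was not made without a trend (limma adjusted p = 0.0731), and the adjusted p ranged from 0.0372 to 0.345 over the alternatives. The values for Pygm were 0.80 (limma adjusted p = 0.0689), for Pfkm 0.71 (limma adjusted p = 0.0907) and for Eno3 0.77 (limma adjusted p = 0.198). The contrasts of 0.2% FBS and of the mean of both media share the 0.2% FBS library with the exosome contrast in that medium. Those of 2% HS and of the mean of both media share the 2% HS library with the exosome difference there. The opposite signs are therefore not separate evidence. The 0.2% FBS + exosome libraries can be set directly beside 10% FBS, and there the differences were −0.23 for Pgam2, −0.34 for Eno3, −0.16 for Pfkm and −0.16 for Pygm, with limma adjusted p of 0.643, 0.728, 0.801 and 0.797.

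The sequence before the start of these genes is shown for Pgam2 and Pygm, which fell with exosomes, and for Pgam1 and Ldha, which were not called. Promoters of all 10 genes were matched in RefSeq (GRCm38.p6), and both strands of the 250 bases before each start were searched for the MyoD-type E-box CAGCTG, the MYC-type E-box CACGTG, any E-box CANNTG (which contains both of these), the hypoxia core ACGTG (part of CACGTG) and the MEF2 site by name. Capitals mark MyoD-type and MYC-type E-boxes and MEF2 sites. The Pgam2 window, on the minus strand at chr11:5803797-5804046, holds a MyoD-type E-box from −125 to −120 and a MEF2 match from −80 to −71, counted back from the start. The Pygm stretch, on the plus strand at chr19:6384158-6384398 and ending before the first annotated exon, holds a MyoD-type E-box from −168 to −163, and a second one from −8 to −3 lies in the searched window beyond the stretch shown. The Pgam1 window, on the plus strand at chr19:41911621-41911870, holds none of the motifs in capitals. The Ldha window, on the plus strand before the first of 2 starts at chr7:46845554-46845803, holds 2 MYC-type E-boxes.
Pgam2: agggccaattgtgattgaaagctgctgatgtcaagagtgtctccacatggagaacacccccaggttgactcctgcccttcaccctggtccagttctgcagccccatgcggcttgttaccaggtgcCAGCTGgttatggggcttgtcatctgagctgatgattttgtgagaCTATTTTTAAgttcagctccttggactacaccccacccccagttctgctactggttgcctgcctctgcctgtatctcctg
Pygm: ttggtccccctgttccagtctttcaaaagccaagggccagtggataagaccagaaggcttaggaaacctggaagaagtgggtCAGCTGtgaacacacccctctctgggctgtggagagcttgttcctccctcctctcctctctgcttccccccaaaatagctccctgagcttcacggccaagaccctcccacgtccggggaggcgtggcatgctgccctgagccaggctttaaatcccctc
Pgam1: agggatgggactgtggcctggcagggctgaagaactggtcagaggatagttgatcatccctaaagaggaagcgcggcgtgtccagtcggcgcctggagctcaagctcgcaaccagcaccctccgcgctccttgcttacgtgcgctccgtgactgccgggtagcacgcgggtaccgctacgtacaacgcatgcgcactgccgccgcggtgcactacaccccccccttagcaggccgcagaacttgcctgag
Ldha: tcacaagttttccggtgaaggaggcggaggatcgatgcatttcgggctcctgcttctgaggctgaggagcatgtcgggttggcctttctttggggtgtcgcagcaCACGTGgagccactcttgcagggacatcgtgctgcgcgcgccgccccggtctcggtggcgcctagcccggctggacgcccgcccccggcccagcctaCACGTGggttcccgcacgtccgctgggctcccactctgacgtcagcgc

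Of 32851 windows of this length over all promoters, 13% hold CAGCTG, 2.92% a MEF2 match, 6.02% CACGTG, 16.6% ACGTG and 66.2% CANNTG. Eno3, whose difference resembled that of Pgam2 in size, has neither a MyoD-type E-box nor a MEF2 match in its window. The 4 Pfkm starts have none either, and a MYC-type E-box lies from −136 to −131 before the first of them. The hypoxia core occurs 5 times before the first Ldha start, 2 times before Hk2 and the first Pfkm start, and 1 time before Pgam1, Pygm and the second Pfkm start. A match is a run of letters and not a site shown to be used.

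Among the forms found in many tissues, Pgam1 was at 304 FPKM in 10% FBS, 268 in 2% HS, 184 in 2% HS + exosome, 225 in 0.2% FBS, and 298 and 302 in 0.2% FBS + exosome. It catalyses the same step as Pgam2. With exosomes it was higher in 0.2% FBS (0.41, SE 0.25, limma adjusted p = 0.292) and lower in 2% HS (−0.54), and neither value amounts to a call. Eno1, the widespread enolase, was at 294 FPKM in 10% FBS, 251 in 2% HS, 189 in 2% HS + exosome, 263 in 0.2% FBS, and 284 and 380 in 0.2% FBS + exosome. Its replicates were the farthest apart of the 10 genes (SD 0.30), and its change of 0.32 in 0.2% FBS did not pass the threshold (limma adjusted p = 0.482).

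Hk1 and Hk2 encode hexokinases, which phosphorylate glucose on entry. Hk1 was at 44.1 FPKM in 10% FBS, 36.8 in 2% HS, 26.9 in 2% HS + exosome, 41.3 in 0.2% FBS, and 40.5 and 44.7 in 0.2% FBS + exosome. Hk2 was at 13.3 FPKM in 10% FBS, 16.7 in 2% HS, 27.4 in 2% HS + exosome, 16.6 in 0.2% FBS, and 14.0 and 12.6 in 0.2% FBS + exosome. Hk2 was thus highest, and Hk1 lowest, in the single library of 2% HS + exosome. With exosomes its change was −0.30 in 0.2% FBS (SE 0.16, limma adjusted p = 0.241) and its difference 0.68 in 2% HS, the opposite direction. Vegfa, a hypoxia-responsive gene, was also higher in that library (85 against 50.3 FPKM), but of the 5 hypoxia genes looked at (Vegfa, Ankrd37, Bnip3, Egln3 and Car9) 3 were lower and the median difference was −0.19. Their part in the levels of Hk2 and Ldha was not tested.

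Pfkp, the platelet-type phosphofructokinase subunit, was the least abundant member in every library, at 10.8 FPKM in 10% FBS, 11 in 2% HS, 11.1 in 2% HS + exosome, 10.2 in 0.2% FBS, and 8.15 and 9.44 in 0.2% FBS + exosome. Its change of −0.19 in 0.2% FBS was not called (limma adjusted p = 0.47). Ldha, the lactate dehydrogenase subunit that favours lactate formation, was at 540 FPKM in 10% FBS, 598 in 2% HS, 365 in 2% HS + exosome, 558 in 0.2% FBS, and 489 and 527 in 0.2% FBS + exosome. Its change with exosomes in 0.2% FBS was −0.14 (SE 0.31, limma adjusted p = 0.806), and its difference of −0.71 in 2% HS was, beside the 0.68 of Hk2, the farthest from 0 in that medium. After scaling to the 75th percentile the order turned, with −0.68 for Ldha and 0.71 for Hk2.

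For some of these genes the FPKM value depends on how reads shared with another gene were divided. Of the 75-base stretches of the longest coding transcript, 65.4% of those of Eno1 also occur in another annotated transcript, 64.2% in Eno1b, which has 2 entries of its own in the table at 91.9 to 343 FPKM. For Pgam1 the share was 40.6%, all of it with a pseudogene, Pgam1-ps2, and for Pfkp 16.6%, with its neighbour Pitrm1. It was 5.23% for Ldha and 1.97% for Hk1. No stretch of Hk2, Pfkm, Pgam2, Eno3 or Pygm was shared.

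Hk1, Pgam1, Eno1 and Ldha had their lowest value of the 6 libraries in 2% HS + exosome, as did 28% of all genes tested. The median difference from 2% HS was −0.44 for the 10 members and −0.036 for all genes. None of the 10 passed a log2 difference of 1 in either direction, which 0.652% of all genes did. Limma called no member there (0.0839% of all genes called), and the adjusted p was 0.533 for Hk2 and 0.605 or more for the others. Hk2, Pgam2 and Pfkm had an unadjusted limma p of 0.00596, 0.00814 and 0.0379, and 507 of the 10731 genes tested had one under 0.05. Of the members, 5 (Pfkm, Pgam2, Eno3, Pygm and Ldha) were below the control of their own medium in all 3 exosome libraries, and so were 15.5% of all genes tested.

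Whether the exosome change differed between the media was tested as a contrast of its own. No member passed, where 1.16% of all genes did. The value for Hk2 was −0.98 (SE 0.25, limma adjusted p = 0.0922, unadjusted p = 0.0037) and for Pgam1 0.96 (SE 0.38, limma adjusted p = 0.224). For the muscle forms the contrast lay between −0.22 (Pfkm, limma adjusted p = 0.719) and −0.61 (Eno3, limma adjusted p = 0.506). A fit of 1 exosome effect common to both media, over the 5 differentiating libraries, gave −0.88 for Pgam2 (SE 0.16, limma adjusted p = 0.407), −0.79 for Eno3, −0.67 for Pfkm and −0.65 for Pygm. Limma called no member and no other gene in that fit (0%), although 709 genes had an unadjusted p under 0.05, the 4 muscle forms among them.

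**Figure D3:**
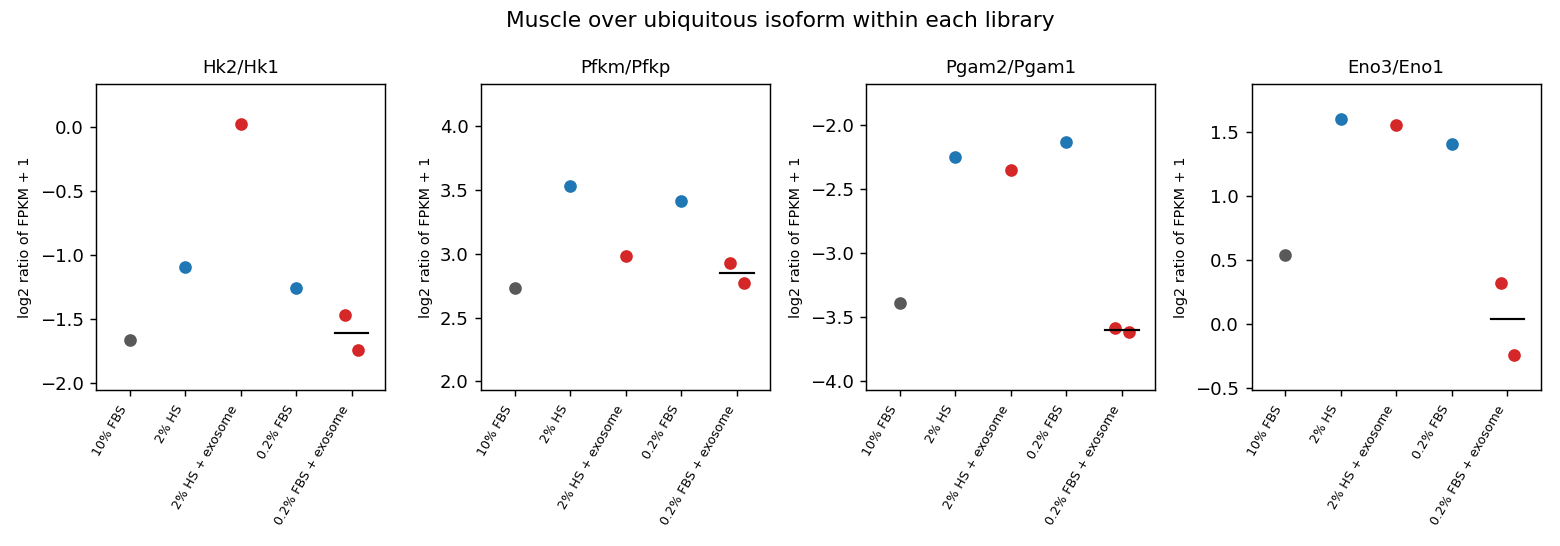
Log2 of the ratio of muscle to ubiquitous isoform, each FPKM with 1 added (vertical axes, all spanning the same range), in each library by condition (horizontal axes). Grey points are 10% FBS, blue points reduced serum, red points exosome libraries, and the bar is the mean of the 2 libraries of 0.2% FBS + exosome. Pgam2/Pgam1 and Eno3/Eno1 are low in 10% FBS and 0.2% FBS + exosome and stay high in 2% HS + exosome, at −2.35 and 1.56.

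FPKM is per length, so the ratio of 2 isoforms within a library compares their levels, and the scaling of the library enters it only through the 1 added to each value. The log2 ratio of Pgam2 to Pgam1 was −3.39 in 10% FBS, −2.25 in 2% HS, −2.35 in 2% HS + exosome, −2.13 in 0.2% FBS, and −3.59 and −3.62 in 0.2% FBS + exosome. With exosomes in 0.2% FBS it differed by −1.45 and −1.49 in the replicates, and in 2% HS, where both isoforms were lower, by −0.10. As a share of Pgam1 and Pgam2 together, Pgam2 made up 18.4% in 0.2% FBS and 7.42% and 7.28% with exosomes, beside 8.44% in 10% FBS.

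The log2 ratio of Eno3 to Eno1 followed the same course, at 0.54 in 10% FBS, 1.60 in 2% HS, 1.56 in 2% HS + exosome, 1.41 in 0.2% FBS, and 0.32 and −0.24 in 0.2% FBS + exosome. By these values Eno3 was more abundant than Eno1 in 0.2% FBS, and in 0.2% FBS + exosome the order of Eno3 and Eno1 differed between the replicates (355 against 284 FPKM and 322 against 380). The change in 0.2% FBS was −1.37 (replicate SD 0.39), and −1.04 when both Eno1b entries were added to Eno1. With Eno1b added the order was another: Eno3 stood at 0.917 times Eno1 and Eno1b together in 0.2% FBS, at 0.498 and 0.4 with exosomes and at 0.562 in 10% FBS, and was the more abundant in the 2 libraries of 2% HS, at 1.07 without and 1.26 with exosomes. The change of the ratio in 2% HS was −0.034, and 0.23 with Eno1b added.

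The log2 ratio of Pfkm to Pfkp was 2.73 in 10% FBS, 3.53 in 2% HS, 2.98 in 2% HS + exosome, 3.41 in 0.2% FBS, and 2.93 and 2.77 in 0.2% FBS + exosome. Its change with exosomes was −0.57 in 0.2% FBS (replicate SD 0.11) and −0.55 in 2% HS. Most phosphofructokinase RNA other than Pfkm was Pfkl, the liver-type subunit, and against Pfkp and Pfkl together the changes were −1.07 and −0.22. The log2 ratio of Hk2 to Hk1 was −1.66 in 10% FBS, −1.09 in 2% HS, 0.024 in 2% HS + exosome, −1.26 in 0.2% FBS, and −1.47 and −1.74 in 0.2% FBS + exosome. With exosomes it changed by −0.34 in 0.2% FBS (replicate SD 0.20) and by 1.12 in 2% HS, where the 2 genes came to nearly equal levels. The isoform ratios were compared as values without a test.

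Of the other isoforms of these steps, Eno2 and Pygb were called with exosomes in 0.2% FBS. Eno2, the enolase best known from neurons, was at 19.1 FPKM in 10% FBS, 12 in 2% HS, 11.3 in 2% HS + exosome, 11.5 in 0.2% FBS, and 30.0 and 30.8 in 0.2% FBS + exosome. It rose with exosomes in 0.2% FBS by 1.33 (SE 0.16, limma adjusted p = 0.00701), and the difference between media passed as well (1.41, limma adjusted p = 0.0357, and 0.0829 without a trend). Pygb, the brain-type glycogen phosphorylase, rose from 9.38 FPKM to 14.2 and 14.5 (0.57, SE 0.16), with a limma adjusted p of 0.0499 that lay at the threshold. It passed under 2 of 6 alternatives, and its limma adjusted p was 0.0741 without a trend, 0.0956 after scaling and at most 0.243. Pygl, the liver type, was listed at 0 in all libraries. Pfkl went from 35.1 to 46.4 and 48.8 FPKM (0.43, limma adjusted p = 0.121), and Ldhb, the lactate dehydrogenase subunit of heart, from 15.2 to 12.8 and 16.6 FPKM (−0.057, limma adjusted p = 0.869). Ldha made up 97% to 97.8% of the RNA of Ldha and Ldhb over the libraries, to 3 digits.

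**Figure D4:**
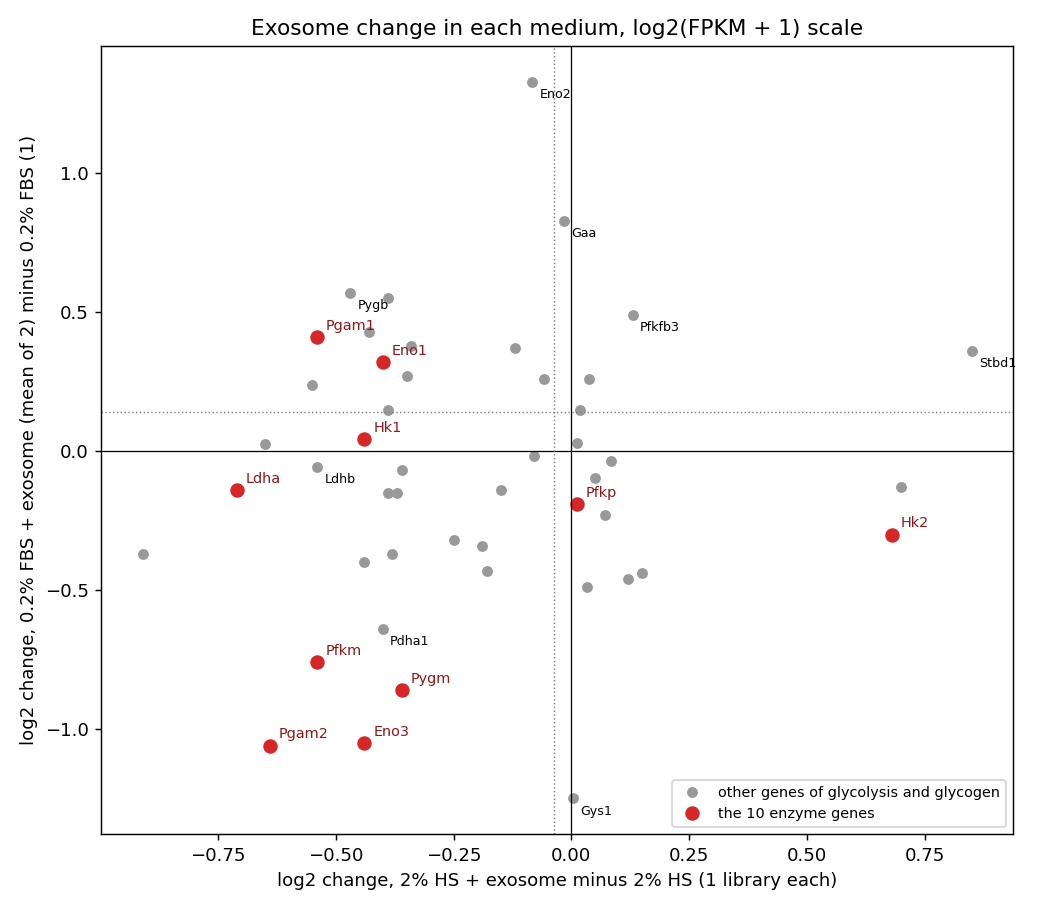
Exosome difference in log2(FPKM + 1) in 2% HS (horizontal axis, 1 library each) and in 0.2% FBS (vertical axis, mean of 2 libraries minus 1) for the 10 genes (red) and 38 other tested entries of glycolysis and glycogen (grey). Dotted lines are the medians of all genes tested. Pfkm, Pgam2, Eno3 and Pygm lie at the lower left, and Eno2 at the top with 1.33 in 0.2% FBS.

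Other genes of the pathway were counted in 8 lists with 58 entries, of which 38 passed the filter. In 0.2% FBS 1 of the 38 was called lower and 3 higher with exosomes, near the 4.32% and 8.2% of all genes, and their median change was −0.047, beside 0.14 for all genes. In 2% HS the median difference was −0.17, with 25 of 38 below 0, where 58.7% of all genes were. Of the 38, 16 had their lowest value of the 6 libraries in 2% HS + exosome, or 42.1% beside 28% of all genes.

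Glycogen synthesis had 5 of 11 entries tested and 1 call. Gys1, muscle glycogen synthase, was at 28.2 FPKM in 10% FBS, 44.3 in 2% HS, 44.4 in 2% HS + exosome, 56.4 in 0.2% FBS, and 24.5 and 21.8 in 0.2% FBS + exosome. It fell in 0.2% FBS by 1.25 (SE 0.17, limma adjusted p = 0.00767). Its 2 libraries in 2% HS were nearly equal (0.0025), and the difference between media had a limma adjusted p of 0.0617.

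Glycogen breakdown beside Pygm had 7 of 8 entries tested, with no call downward and 2 upward in 0.2% FBS. Gaa, the lysosomal glucosidase that degrades glycogen, rose from 56.2 to 96.0 and 105 FPKM (0.83, SE 0.18, limma adjusted p = 0.0276). Pygb is the other call.

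Lower glycolysis had 7 of 9 entries tested and Eno2 as its call. No entry was called in upper glycolysis (4 of 8 tested), the phosphofructokinase 2 family with Tigar (4 of 5), pyruvate and lactate metabolism (8 of 10) or glucose and lactate transport (3 of 5), and the other hexokinases counted, Hk3 and Hkdc1, summed to at most 0.0397 FPKM. Of these lists the entries that differed most with exosomes in 0.2% FBS were Pfkl, Pfkfb3 (1.55 against 2.14 and 3.11 FPKM, limma adjusted p = 0.159), Pdha1, a subunit of pyruvate dehydrogenase (175 against 112 and 111 FPKM, −0.64, limma adjusted p = 0.0765) and the glucose transporter Slc2a3, which was under 1 FPKM in every library. After scaling to the 75th percentile Aldoa, an aldolase, differed most in upper glycolysis, and downward (−0.55, beside −0.40 before scaling), where Pfkl stood at 0.28.

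Genes with the course most like that of the muscle forms were sought among 508 genes that averaged at least 5 FPKM with an SD of at least 0.5 on the log2 scale, by Pearson's r over the 6 libraries as a description. Pgam2 came first for Pfkm (r = 0.995), followed by Anxa8 (0.983) and Thbs1 (0.978). Pfkm and Pygm did not reach that SD and so were not among the genes ranked, although Pfkm and Pgam2 had an r of 0.995. Of the genes ranked, the first for Pgam2 were Susd5 (0.984), Eno3 (0.984) and Anxa8 (0.983). For Eno3 they were Susd5 (0.991), Anxa8 (0.988) and Tbx15 (0.986). For Pygm, Thbs1 (0.994), Anxa8 (0.993) and Pla2g16 (0.992) came first, with Eno3 in place 11 and Pgam2 in place 48 (0.966). The libraries share media and controls, and many genes have a high r over so few points.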

How the data were processed

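The 6 libraries, of 5 conditions, were read as stranded 75 bp single-end reads. Per the labels and the study's methods, the authors trimmed the reads with cutadapt 1.9.1, mapped them to mm10 with TopHat2 2.1.0, computed FPKM with Cufflinks and deposited these FPKM values as 1 table without counts. FPKM is corrected for the length of the transcript and the depth of the library. The labels name a miRNeasy kit for the RNA and the study's methods an RNeasy kit.

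Values were compared as log2(FPKM + 1), which understates changes of low genes. Of 20950 entries, the 10731 with a mean of at least 1 FPKM were fitted with limma 3.58.1 (R 4.3.3), with a mean-variance trend and Benjamini-Hochberg adjustment over all of them, and called at an adjusted p under 0.05. The fit with 1 mean per condition has 1 residual degree of freedom, from the 2 libraries of 0.2% FBS + exosome, and assumes that single libraries vary alike. The fit with 1 common exosome effect has 2. Both were tested on simulated data with changes much larger than those of the members, so their performance at the sizes reported here was not tested. Differences of single libraries were planned as values, and their tests in this fit were added after seeing the data. Calls by fold used a log2 change past 1, after the study's methods. Depth was estimated from the spacing of low values in genes with 1 transcript, assuming fragments of 200 bases.

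The members, the lists of pathway genes and the tests were chosen with earlier results of these data known. The 10 members, other isoforms of their steps, and each list's called entries or otherwise its most changed entry are named, apart from the markers. So are the 3 genes most like each muscle form among those ranked. Some genes of these lists are not reported here and were left out of the counts. Pgm1 and Pgm2 were left out because their symbols were exchanged between annotation releases. Shared stretches were counted in an annotation of GRCm38. Alternatives were a pseudocount of 0.1, values below 1 FPKM raised to 1, scaling to the 75th percentile, no filter, a minimum of 5 FPKM, no trend and leaving out each replicate. Adding Eno1b to Eno1 and Pfkl to Pfkp, and repeating the settings for single-library differences, were chosen after seeing the data. No column of per-sample values was left out.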

Additional observations from a re-analysis of the deposited data

Results flagged for a closer look

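For 4 genes the exosome library in 2% HS lay on the other side of its control from both exosome libraries in 0.2% FBS. All genes tested also leaned apart between the media, with 34.9% below 0 in 0.2% FBS and 58.7% in 2% HS. The share of all genes with opposite signs was not counted, so the pattern is not shown to be particular to these genes. The difference between the media (0.2% FBS minus 2% HS, log2 scale) was −0.98 for Hk2 (limma adjusted p = 0.0922), 0.96 for Pgam1 (limma adjusted p = 0.224), 0.72 for Eno1 (limma adjusted p = 0.391) and −0.21 for Pfkp (limma adjusted p = 0.706), so none passed the test of the difference itself. The 2% HS side rests on 1 library with and 1 without exosomes.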

How the results depend on the processing

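No paired analysis was possible within a medium because only 1 pair of libraries in each shares a number in the sample titles. Over both media the numbers follow the medium, so the medium term of the common fit without replicate 2 also pairs these libraries, and limma then called 0 genes (296 at an unadjusted p under 0.05), with Pgam2 at −0.85 (limma adjusted p = 1). Direction held for the changes of Pfkm, Pgam2, Eno3 and Pygm with exosomes in 0.2% FBS under all alternatives run. The number of members called there was 3, and 0 with values below 1 FPKM raised to 1 or with no filter, when limma also called 0 of all genes (2929 and 3121 at an unadjusted p under 0.05) in place of 1344. The residual and prior degrees of freedom were then 3.47 and 2.03, in place of 8.28. Under the same settings limma called 0 genes for the difference between media (125 otherwise, 45 without a trend, 1698 and 2276 at an unadjusted p under 0.05) and 0 for reduced serum (214 otherwise, 2 without a trend, 1996 and 2370 unadjusted). The member called for reduced serum, Pgam2, was then lost as well, leaving 0, and also without a trend. Scaling to the 75th percentile moved the share of lower calls with exosomes in 0.2% FBS from 34.5% to 58.8%.

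Calls by fold in 0.2% FBS were 434, and 675 with a pseudocount of 0.1, 666 with low values raised to 1, 269 when each replicate had to pass, and 338 to 617 with 1 replicate left out. For 2% HS minus 10% FBS they were 248, 402 and 375, for 0.2% FBS minus 10% FBS 266, 455 and 440, and for exosomes in 2% HS 70, 126 and 123, in the same order of settings. Limma calls for single-library differences were 9 for exosomes in 2% HS, 55 for 2% HS minus 10% FBS and 2 for 0.2% FBS minus 10% FBS (507, 1805 and 1898 at an unadjusted p under 0.05), and 0 for each with values below 1 raised to 1 (422, 1449 and 1602 unadjusted) or no filter (1172, 1967 and 2082). With a minimum of 5 FPKM they were 4, 55 and 41, with a pseudocount of 0.1 9, 68 and 45, after scaling 8, 3 and 2, and without a trend 7, 1 and 2. No member was called in any of these. Leaving out a replicate leaves the fit with 1 mean per condition no residual degree of freedom, so limma calls were not run there.

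The sign turned for small values that were not called. Hk1 in 0.2% FBS went to −0.10 after scaling and to between −0.026 and 0.11 with a replicate left out, and Pfkp in reduced serum to 0.037 after scaling. In the common effect Pgam1 went to −0.065 after scaling and to −0.058 and −0.068 without replicates 1 and 2, and Eno1 to −0.061 after scaling and to between −0.15 and 0.062 with a replicate left out. Adding Eno1b turned the change of Eno3/Eno1 in 2% HS to 0.23. Adding Pfkl put Pfkm/Pfkp at −1.07 in 0.2% FBS, −0.22 in 2% HS and 1.05 in reduced serum. Without a pseudocount Pgam2/Pgam1 was −1.50 with exosomes in 0.2% FBS and 1.23 in reduced serum, and with 0.1 added −1.50 and 1.22. The causes were not tested.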
